A study of Arabidopsis thaliana with 4 samples.

Results

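The SPL (SQUAMOSA PROMOTER BINDING PROTEIN-LIKE) transcription factors that carry a target site for the microRNA miR156 were followed in the centre of the Arabidopsis rosette. They were chosen by locus, and all 10 of them, SPL2, SPL3, SPL4, SPL5, SPL6, SPL9, SPL10, SPL11, SPL13 and SPL15, were among the 32678 loci counted. RNA sequencing was done on 4 cores, each the central 1.5 to 2 cm of a rosette. All cores came from untreated plants of the accession Col-0 at 31 day, kept at 22 °C under a 16 h photoperiod with 100 µE of light after the seeds were chilled at 4 °C. The cores form 1 group, so the data give levels and the spread between cores, with no contrast between conditions. The labels do not state whether each core is a different plant. A p-value here therefore speaks of the spread between 4 samples and may reflect technical variation.

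SPL proteins promote the change from juvenile to adult leaves and the onset of flowering. In young plants miR156 is abundant and holds SPL transcripts down by cleavage and by blocking translation, and as the plant ages miR156 declines and SPL activity grows. SPL9 and SPL15 act on leaf initiation and on flowering, in part by switching on the microRNA gene MIR172B, whose product represses a family of AP2-like floral repressors. The short proteins SPL3, SPL4 and SPL5 promote floral meristem identity, SPL2, SPL10, SPL11 and SPL13 shape adult leaves and lateral organs, and SPL6 has been linked to immunity.

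The target sites are shown because the region that holds the site and its pairing with the microRNA divide the genes. Of the 27444 protein-coding loci of the RefSeq annotation (TAIR10.1 assembly), 13 (0.0474%) had a 20-base site with at most 3 mismatches to miR156a-5p, counting Watson-Crick pairs only. The 13 were all 10 SPL genes, SPL13B, which is a copy of SPL13, and AT3G28690 and AT3G47170. The limit of 3 was set after the value of SPL5 was seen. In the microRNAs the seed, bases 2 to 8, is in capitals. In the sites, written 5′ to 3′ on the strand of the gene, capitals mark bases that pair with miR156a-5p.
ath-miR156a-5p: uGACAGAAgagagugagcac
ath-miR156i: uGACAGAAgagagagagcag
ath-miR156j: uGACAGAAgagagagagcac
ath-miR157a-5p: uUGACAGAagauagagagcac
ath-miR172b-3p: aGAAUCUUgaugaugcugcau
SPL2, SPL6, SPL9, SPL10, SPL11, SPL13 and SPL15: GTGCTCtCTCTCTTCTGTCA
SPL4: cTGCTCtCTCTCTTCTGTCA
SPL3: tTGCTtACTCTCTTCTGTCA
SPL5: ccGCTCtCTCTCTTCTGTCA

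The same 20 bases, with 1 mismatch to miR156a-5p, stood in the coding sequence of 7 of the 10 genes, in the last exon each time. SPL9 held them at chr2:17589066-17589085 on the plus strand and SPL15 at chr3:21444834-21444853 on the minus strand. SPL3, SPL4 and SPL5 held their sites in the 3′ UTR, with 2, 2 and 3 mismatches. The first bases of these 3 sites differ from the shared one, and the SPL3 site, which also differs from it further inside, lies at chr2:14305878-14305897. With miR157a-5p the SPL3 site had 5 mismatches, and the SPL9 site had 1. The loci of miR156i and miR156j are annotated on the opposite strand of the SPL4 and the SPL9 gene, and their mature microRNAs cover exactly the bases of those sites, so their full pairing there follows from the position. Mature microRNAs were not measured, since the libraries were made from longer fragments.

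The level of a gene could be read for 5 of the 10 genes. The table has 1 row per transcript model, and the median protein-coding locus averaged 0.5 counts where it has several models, summed, against 55.5 counts where it has 1. Levels are therefore given for SPL3, SPL5, SPL6, SPL9 and SPL15, which have 1 model. Their unit is CPM, counts scaled to 1e+06 counts on the 26516 nuclear loci with 1 model after TMM scaling. Totals ran from 5639486 to 7692788 counts a core, and the TMM-scaled libraries of those nuclear loci from 5.31e+06 to 7.15e+06. On these scaled libraries a count of 0 allows up to 0.419 to 0.565 CPM (3 counts), which covers counting error only. In whole tissue, fewer cells of a type and less RNA per cell cannot be told apart.

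SPL3 and SPL9 stood well above the other measured genes, SPL3 at 65.0 ± 11.0 CPM and SPL9 at 50.2 ± 8.94 CPM (SD, n = 4). Exon bases of SPL3 lie to 97.3% over AT2G33815 on the opposite strand. The level of SPL3 may therefore hold reads of that gene, as described below. SPL6, SPL5 and SPL15 lay between 10.9 and 16.5 CPM. Per kb of exon the order was SPL3, SPL9, SPL6, SPL15 and SPL5, and only the steps from SPL3 to SPL9 and from SPL9 to SPL6 had the same sign in 4 of 4 cores. All 5 passed 1 CPM in every core, as did 61.7% of nuclear protein-coding loci with 1 model.

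SPL9 (AT2G42200, chr2:17587169-17589671, plus strand), a regulator of the pace of leaf initiation, had 41.8, 45.0, 51.9 and 62.0 CPM in cores 1 to 4. Core 4 was the highest and core 1 the lowest, 1.48 times apart, near the median of 1.45 over the genes tested. SPL15 (AT3G57920, chr3:21444243-21446035, minus strand), the closest relative of SPL9 in the set, with 79.5% identity over the aligned coding bases, had 7.83, 9.53, 12.6 and 13.6 CPM in the same cores. Core 1 was again lowest and core 4 highest, 1.73 times apart, the widest of the 5 genes. SPL9 was above SPL15 in every core, and the ratio of their CPM was 5.34, 4.72, 4.13 and 4.57. SPL15 lies with all its exon bases over AT3G57910 on the opposite strand, so the level of SPL15 may hold reads of that gene, as described below.

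Among the genes with a site in the 3′ UTR, SPL3 (AT2G33810, chr2:14305001-14306072, plus strand), a small protein that acts on floral meristem genes, had 61.1, 81.0, 62.2 and 55.8 CPM in cores 1 to 4. Core 2 stood above the other 3 cores, which lay close together. SPL5 (AT3G15270, chr3:5140365-5142323, minus strand), a relative of SPL3, had 13.6, 10.6, 13.9 and 13.0 CPM. Core 2 was here the lowest, and the highest core was 1.32 times the lowest. SPL6 (AT1G69170, chr1:26005068-26007368, plus strand) had 18.3, 19.8, 13.5 and 14.5 CPM. Its values in cores 1 and 2 lay above those in cores 3 and 4.

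**Figure D1:**
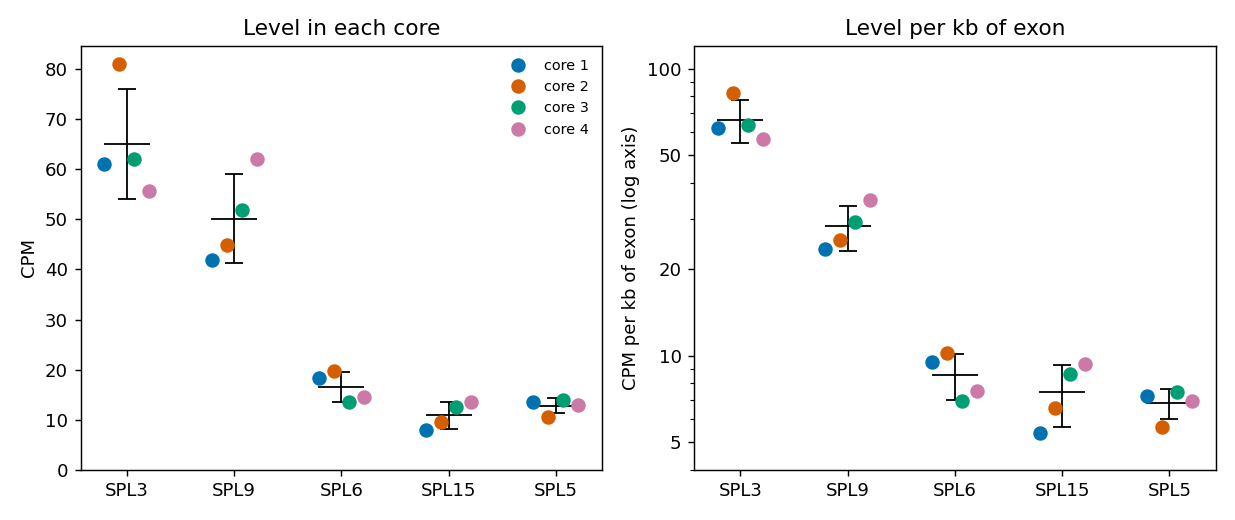
Levels of the 5 SPL genes with 1 transcript model in the 4 rosette cores, as CPM (left, linear axis) and as CPM per kb of exon (right, log axis). Points are cores, horizontal bars the mean and whiskers the SD over 4 cores; SPL3 and SPL9 lie above the other 3 genes, whose ranges overlap on both axes.

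Per kb of exon SPL3 had 66.3 ± 11.2 and SPL9 28.2 ± 5.02 CPM per kb, at percentiles 90.7 and 79.3 of nuclear protein-coding loci with 1 model. SPL6 had 8.54 ± 1.56, SPL15 7.47 ± 1.82 and SPL5 6.82 ± 0.808 CPM per kb, at percentiles 58.1, 55.8 and 54.5. The median of all those loci was 4.99 CPM per kb. The SPL3 level per kb, its percentile and its ratio to SPL9 are uncertain, since the SPL3 counts may hold reads of AT2G33815. The log2 ratio of SPL3 over SPL9, taken per kb within each core, was 1.24 ± 0.43 (SD, n = 4), and the log2 ratio of SPL9 over SPL6 was 1.72 ± 0.48. Each was positive in 4 of 4 cores, and the ranges per kb did not overlap. For each, the exact two-sided sign-flip permutation test gave the smallest p that 4 cores allow, which is above 0.05 and becomes 0.25 after Benjamini-Hochberg adjustment over the 4 neighbouring pairs.

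Per kb of exon the lower 3 genes did not differ beyond their spread. The log2 ratio of SPL6 over SPL15 was 0.21 ± 0.60, with 0.81, 0.64, -0.31 and -0.31 in cores 1 to 4, and SPL6 was higher in 2 of 4 cores. The log2 ratio of SPL15 over SPL5 was 0.11 ± 0.37, positive in 3 of 4 cores. In the exact two-sided permutation test both pairs gave p = 0.5, also after that adjustment. The place of SPL5 depends on the length used, since it has 546 coding bases among 1872 exon bases. Per kb of coding sequence the log2 ratio of SPL15 over SPL5 was -1.22 ± 0.37 and that of SPL6 over SPL5 was -0.80 ± 0.41 (SD, n = 4), against 0.31 ± 0.41 for SPL6 over SPL5 per kb of exon. By coding length SPL5 was thus above both genes in 4 of 4 cores, and SPL3 and SPL9 were still above SPL5 in 4 of 4.

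The spread between cores was larger than counting noise for SPL3, SPL9, SPL6 and SPL15, and SPL5 did not pass the test. With a chi-square test of the Poisson deviance in edgeR, adjusted by Benjamini-Hochberg over 12771 genes, 4 of the 5 measured genes passed 0.05, while 64.1% of all genes tested did. A count of 4 in 5 is near that background and is not a result about the SPL genes. The adjusted p was 6.29e-07 for SPL3, 1.07e-05 for SPL9, 0.00992 for SPL15, 0.0230 for SPL6 and 0.345 for SPL5. The call of SPL3 rested on core 2, with an adjusted p of 0.405 without it. SPL6 had 0.104 without core 2 and 0.143 without core 3, and SPL15 had 0.141 without core 1, while SPL9 passed whichever core was left out. Without core 2 the count was 2 of 5.

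Set against genes of the same level, none of the 5 lay at an extreme. The measure was edgeR's quasi-dispersion over its trend, the spread around a fit that already allows for variation beyond counting. It was at percentile 66.2 for SPL9, 63.3 for SPL15, 61.8 for SPL3, 52.9 for SPL6 and 22.3 for SPL5. The coefficient of variation over cores ran from 11.8% for SPL5 to 24.4% for SPL15, with a median of 16.6% over the genes tested.

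The 5 genes did not move as 1 group over the cores. SPL9 and SPL15 had the same order of cores, lowest in core 1 and then cores 2, 3 and 4, an order that 521 genes, 4.08% of those tested, had. SPL3 was lowest in core 4 and highest in core 2, SPL6 lowest in core 3 and highest in core 2, and SPL5 lowest in core 2 and highest in core 3. The share of SPL9 in the CPM of the 5 genes was 29.3, 27.1, 33.7 and 39.0% in cores 1 to 4. The ratio of SPL3 over SPL9 CPM was 1.46, 1.80, 1.20 and 0.900, so that SPL9 was the higher of both in core 4 before length is taken into account.

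**Figure D2:**
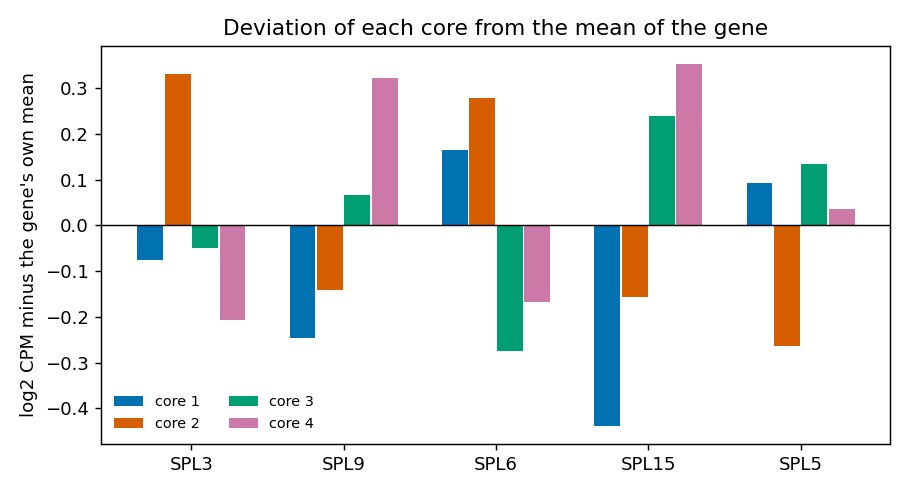
Deviation of log2 CPM in each core from the mean of the gene over the 4 cores, for the 5 SPL genes with 1 transcript model. Bars above 0 are cores above the mean of the gene. Core 4 is above it for SPL9, SPL15 and, by 0.036, SPL5, and below it for SPL3 and SPL6. Core 2 is the highest for SPL3 and SPL6.

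Meristem markers also differed between cores, but not in 1 direction. STM, which maintains the shoot meristem, had 194, 317, 95.7 and 162 CPM in cores 1 to 4, and KNAT1, a related homeobox gene, had 153, 289, 97.1 and 109 CPM. CLV1, a receptor that limits the meristem, had 81.9, 92.2, 104 and 74.0 CPM, highest in core 3, where STM was lowest. PDF1, an epidermal marker, had 1141, 683, 1070.1 and 1092.9 CPM, lowest in core 2, where STM and KNAT1 were highest. STM and KNAT1 share the order of cores of SPL6, as do 10.9% of the genes tested, the most frequent of all orders. All 4 listed markers of the shoot apex (STM, KNAT1, CLV1, PDF1) were detected in every core, and their summed level ran from 1366 to 1569 CPM. The epidermal marker PDF1 was the highest of the 4 in every core, so the sum does not show the differences in STM and KNAT1. The 3 leaf mesophyll markers summed to 23837 to 34563.5 CPM. The part of these differences in the spread of the SPL genes was not tested. Root hair markers EXPA7 and RHD6 had 0 and 1 count in all, while SCR and SHR, which also act in shoots, were detected. The pollen markers GEX2 and VGDH1 had no count and ANX1 averaged 17.3 CPM, and the 4 floral organ markers summed to 6.59 to 13.3 CPM.

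Few of the closest profiles are named, and the likeness rests on 4 cores and 1 measure, the root mean square difference of centred log2 CPM among 11757 genes of at least 5 CPM. SPL9 was closest to AT3G27640 (0.0149) and CIPK2 (0.0155), and SPL15 to CGLD27 (0.0247) and SLO2 (0.0266). SPL3 was closest to SIP3 (0.0171) and SWEET17 (0.0201). SPL6 was closest to AT1G61620 and AT1G21680, and SPL5 to AT5G56120 and RABA4B. Within a distance of 0.1 lay 349 genes for SPL9, 115 for SPL15, 355 for SPL3, 597 for SPL6 and 655 for SPL5, so the named genes are the first of many.

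Genes on the opposite strand cover parts of several SPL genes. The library kit marks strand, per the labels' protocols, but the strand setting of the counting is not given in the sources used here. Exon bases of SPL3 lie to 97.3% over the noncoding RNA gene AT2G33815, which had 483, 529, 440 and 314 counts in cores 1 to 4. SPL3 had 437, 544, 406 and 296 counts in the same cores. Both genes thus had near-equal counts and both were highest in core 2, with a log2 ratio of SPL3 over AT2G33815 of -0.08 ± 0.08 (SD, n = 4).

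For SPL15, whose exons lie to 100% over the protein-coding gene AT3G57910, the counts were 56, 64, 82 and 72 in cores 1 to 4, beside 67, 63, 64 and 43 for AT3G57910. The log2 ratio of SPL15 over AT3G57910 was 0.21 ± 0.43, and SPL15 was higher in cores 2, 3 and 4. AT3G57910 extends beyond SPL15, which covers 46.3% of its exons. SPL5 lies to 25.5% over AT3G15260, a locus with 2 models, and SPL6 to 0.982% over CRC, a carpel gene with 43, 18, 33 and 11 counts. SPL9 overlaps no gene of the table on the other strand. Leaving out SPL3, SPL15 and SPL5, the genes covered over more than 20%, left SPL9 and SPL6. Both passed the counting-noise threshold, as did 64.1% of all genes tested, so 2 of 2 is not a result about the SPL genes.

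Near-equal counts were common among such pairs. Of 17 pairs of 1-model loci that cover each other by at least 90%, 16 had at least 20 counts, and 12 of these lay within 2-fold, with a median absolute log2 ratio of 0.36. Whether reads of one strand were counted for both genes was not tested, so the level of SPL3 may belong in part to its partner. Without SPL3, the CPM of the other 4 genes summed to 81.5, 84.9, 91.9 and 103 in cores 1 to 4, against 143, 166, 154 and 159 with it.

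**Figure D3:**
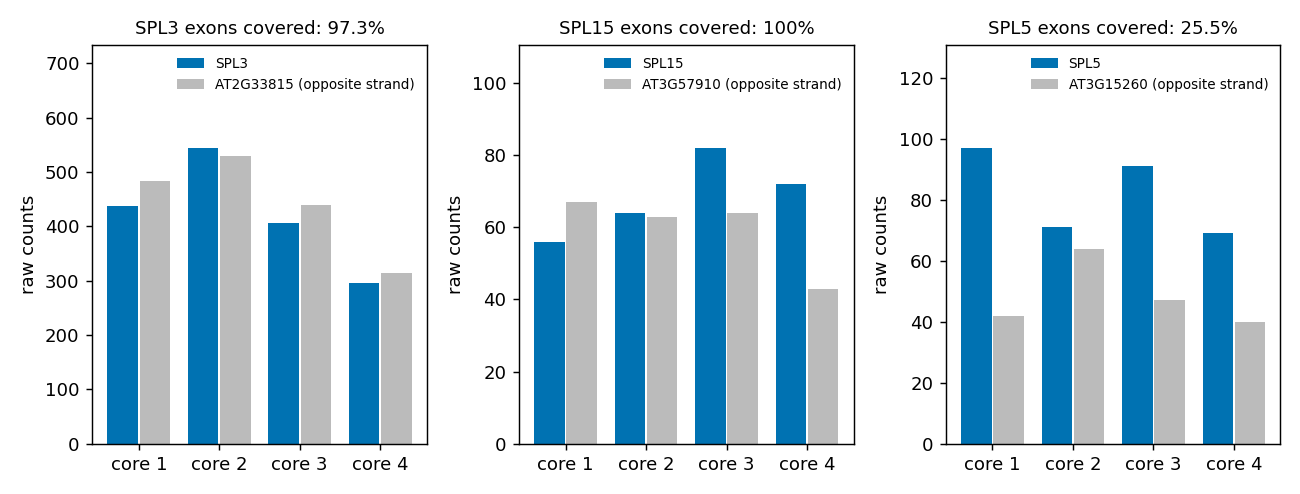
Raw counts in each core of SPL3, SPL15 and SPL5 (blue) and of the gene on the opposite strand (grey), each panel with its own axis from 0. SPL3 and AT2G33815 have near-equal counts in every core; SPL5 is above AT3G15260 in every core, and that locus has 2 models.

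For SPL2, SPL4, SPL10, SPL11 and SPL13, which have several models, the table held few counts. SPL4, the third of the short flowering regulators, had 21, 28, 14 and 14 counts over its 2 models in cores 1 to 4. SPL10, a regulator of leaf shape, had 10, 13, 12 and 10 counts over 4 models, and its neighbour SPL11 had 1, 1, 2 and 1. SPL2 had 9, 7, 8 and 7 counts over 3 models. SPL13 had no count in any core, and neither had SPL13B, whose coding sequence of 1080 bases is 100% identical.

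In SPL2 and SPL10 the counts fell on models with bases of their own in the RefSeq annotation, which may differ from the TAIR10 models the authors counted. In SPL10 the first model holds 160 bases found in no other model and took 44 counts, with 1 count on the second. In SPL2 the second model holds 202 such bases and took 25 counts, and the first, with 84, took 6. SPL4 differed, since its second model has 0 such bases in RefSeq and took 30 counts, 16 of them in core 2, beside 47 on the first. In SPL11 all 5 counts fell on the second model, which has 2 such bases, and in SPL13 there was no count on models with 174 and 544. These counts are no measure of the level of the gene. With models summed and tested among 13460 genes, of which 8404 passed, the edgeR Poisson test gave an adjusted p of 0.243 for SPL4 and 0.881 for SPL10. Those values rest on only 77 counts for SPL4 and 45 for SPL10. The test therefore cannot show whether either gene was even over the cores.

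**Figure D4:**
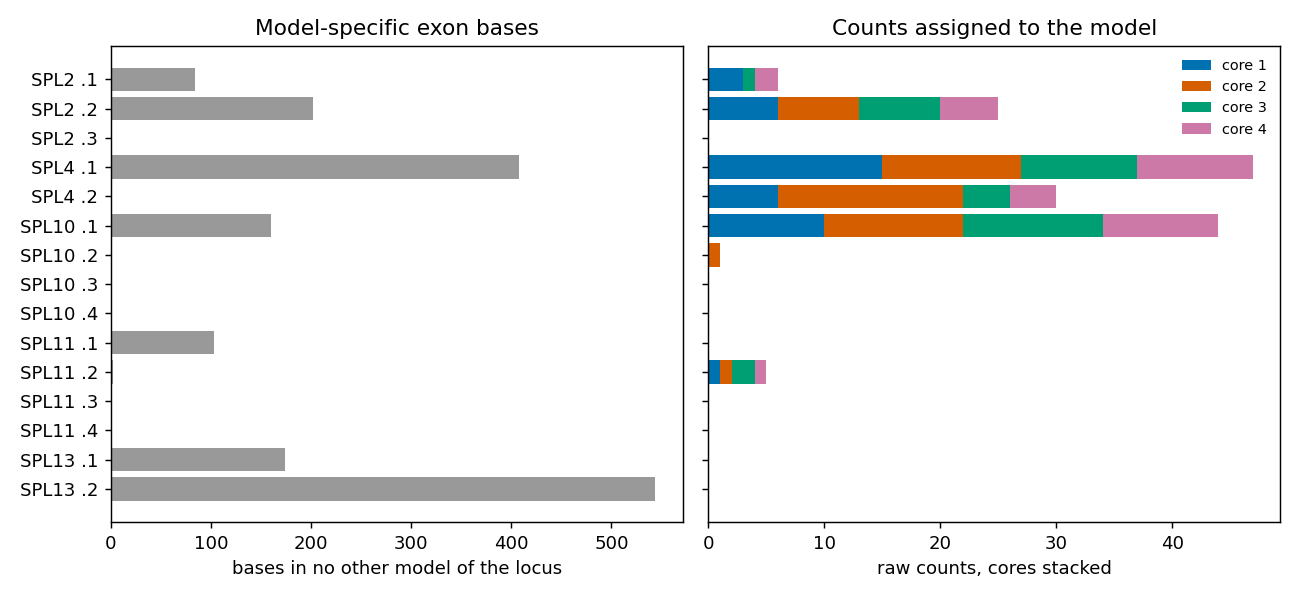
Exon bases found in no other model of the locus in RefSeq (left) and raw counts, stacked over the 4 cores (right), for each transcript model of the 5 SPL genes with several models. The first SPL10 model holds 160 such bases and 44 counts, the second SPL4 model holds 0 and 30 counts, and both SPL13 models have 0 counts.

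Per kb of exon, SPL genes without a miR156 site had the higher median, 30.5 CPM per kb over the 4 with 1 model. The median of the 5 genes with a site was 8.54 CPM per kb. By coding length the median without a site was 40.6 CPM per kb, and that of the genes with a site is not given here. SPL1 had 149 to 198 CPM, SPL14 107 to 229 CPM, SPL12 73.7 to 96.9 CPM and AT1G76580 28.1 to 50.8 CPM. The closest match to miR156a-5p in these 4 genes and in SPL7 and SPL8 had 6 to 8 mismatches. Per kb, SPL3 had 66.3 and SPL1 49.9, an order that is uncertain because the SPL3 counts may hold reads of AT2G33815. SPL9 with 28.2 lay between SPL12 with 23.3 and SPL14 with 37.8. AT1G76580 with 9.81 lay below SPL9 and near SPL6 with 8.54, so the levels of both groups overlapped. All 4 passed the counting-noise test, as did 64.1% of all genes tested. SPL12, SPL14 and AT1G76580 had the order of cores 1, 2, 4 and 3 from low to high, which 7.53% of the genes tested have. SPL7 and SPL8, a copper response regulator and an anther regulator, have several models, with 0 and 13 counts. With 4 and 5 genes, this is a description and no test of the site.

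The precursor loci of the microRNA were near the limit of counting. The 12 MIR156 and MIR157 loci had 27 counts in all, 8, 5, 9 and 5 in cores 1 to 4, and all 12 were below 1 CPM in every core. MIR156C had 9 of these counts, MIR157C 5 and MIR156D 4, and MIR156B, MIR156E, MIR156F and MIR157B had none. The annotated loci are short, so this does not give the level of the mature microRNA.

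In the next step of the pathway, MIR172B had 12, 10, 9 and 13 counts in cores 1 to 4 and MIR172A 6, 11, 4 and 0, while MIR172C, MIR172D and MIR172E had none. MIR172B passed 1 CPM in every core. Of the 6 AP2-like targets of miR172, 2 have 1 model. TOE3 had 12.8 to 15.7 CPM and SNZ 5.51 to 8.88 CPM, and 0 of 2 passed the counting-noise test in edgeR, with adjusted p of 0.651 and 0.191. The test cannot show that they were equal in all cores.

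Of 11 flowering genes downstream of or beside the SPL proteins, 7 have 1 model, with a median of 6.65 CPM per kb. SOC1, a direct target of SPL9, varied little, with 66.7, 70.3, 66.0 and 71.0 CPM in cores 1 to 4. AGL24, a partner of SOC1, had 124 CPM per kb, the highest of the list. AP1, a floral meristem gene that SPL3 binds, had 11.6, 13.8, 12.4 and 8.48 CPM, and LFY had 2.38, 6.25, 3.67 and 1.70 CPM. Both had the order of cores of SPL3, which 3.16% of the genes tested have. That order is not firm, since SPL3 was nearly level in cores 1 and 3 (61.1 and 62.2 CPM). FD, the partner of florigen, had 24.3 to 32.3 CPM, and FT and TSF were below the limit that a count of 0 allows. In the counting-noise test in edgeR, AGL24 and LFY passed among 5 genes tested, and 64.1% of all genes tested passed. The adjusted p of that test was 0.000294 for LFY and 0.0694 for AP1, which did not pass.

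Trichome genes connect SPL9 to the epidermis, since SPL9 switches on the hair repressors TCL1 and TRY in Arabidopsis stems. TCL1 had 2.66, 4.32, 2.14 and 4.90 CPM and TRY 5.59, 7.30, 3.06 and 5.46 CPM in cores 1 to 4. Neither had the order of cores of SPL9. Of 8 genes, 6 have 1 model, with a median of 5.21 CPM per kb, and TCL1 and TRY were the 2 of 5 tested that passed, against 64.1% of all genes tested. CPC averaged 11.1 CPM per kb, GL1 4.89, GL3 1.85 and ETC1 0.354 CPM per kb.

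Genes that make microRNAs or regulate the MIR156 loci were read where they have 1 model, 4 of 7 and 9 of 11 genes. DCL1, HEN1, AGO1, DRIP1 and AGL18 have several models and no usable level. In the miRNA machinery, SE had 65.1 to 105 CPM, HYL1, the double-stranded RNA binding partner of DCL1, 29.4 to 36.3 CPM, HST 21.5 to 32.6 CPM, and SQN 0.565 to 3.28 CPM. The median of these 4 was 12.4 CPM per kb, and SE and HST passed the test among 3 tested. The 9 regulators of MIR156 with 1 model had a median of 10.2 CPM per kb, and 6 of 9 passed. Both counts are near the 64.1% of all genes tested. The sugar sensor HXK1, with 126, 137, 174 and 183 CPM, and TPS1, a trehalose 6-phosphate synthase, with 81.4, 91.9, 102 and 126 CPM, were the highest, and BMI1A and AGL15 the lowest with 6.73 and 2.99 CPM per kb. HXK1 and TPS1 rank the cores as SPL9 and SPL15 do, an order shared by 4.08% of the genes tested, which was seen after the values were known.

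**Figure D5:**
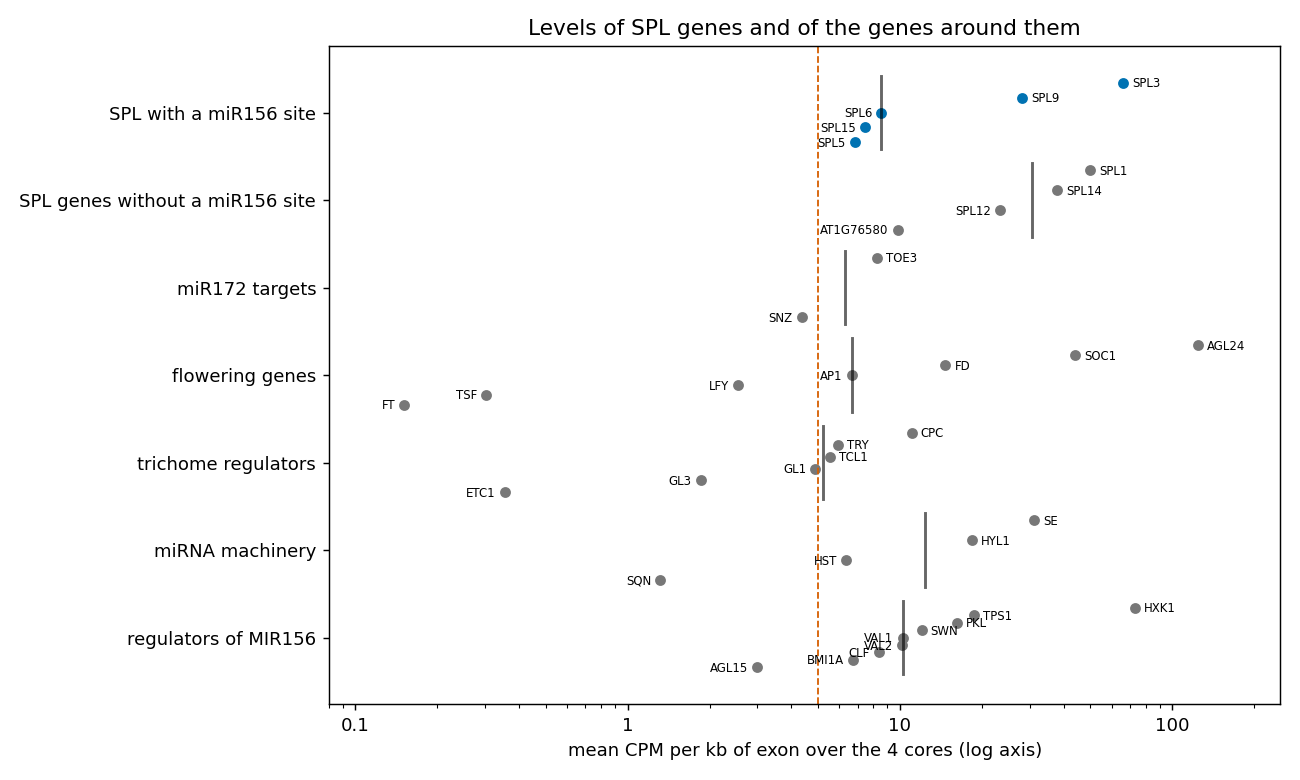
Mean level over the 4 cores in CPM per kb of exon, on a log axis, of the SPL genes with a miR156 site (blue) and of 6 gene lists (grey), for genes with 1 transcript model. Vertical bars are list medians and the dashed line is the median of nuclear protein-coding loci with 1 model, 4.99 CPM per kb; the SPL genes without a site have the highest median, 30.5.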

How the data were processed

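The deposited table holds raw counts made by the authors, 1 row per TAIR10 transcript model (40745 rows), without normalization, per the file headers. Ribosomal RNA was depleted and strand-specific libraries were sequenced on an Ion Proton, per the labels' protocols. HTSeq, TAIR10 and Torrent Suite 4.0.2 are named in the submitters' processing notes and protocols, and aligner and counting settings were not given in the sources used here.

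Models were summed per locus. CPM were computed here after TMM scaling over nuclear loci with 1 model, with edgeR 4.0.16 in R 4.3.3. Organelle loci with 1 model gave 2.94 to 5.15% of the counts on loci with 1 model. Loci with several models gave 1.63 to 1.73% of all counts. Spread was tested on genes passing edgeR's filter (minimum count 10, 12771 genes) by Poisson deviance against a chi-square distribution with 3 degrees of freedom, Benjamini-Hochberg adjusted, threshold 0.05, and the test was checked on simulated data. Ratios use a prior count of 0.5. Exon lengths, sites and overlaps come from RefSeq on TAIR10.1, where 31912 of 32678 loci matched. The genes and lists were chosen with earlier results of these data known. Named are all SPL genes, all 1-model genes of lists of at most 7, otherwise the 2 highest and 2 lowest per kb, and the 2 nearest profiles. Alternatives were DESeq2 1.42.0 size factors, plain totals, other filters, coding length, a prior count of 2 and leaving out each core.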

Additional observations from a re-analysis of the deposited data

Results flagged for a closer look

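Among 48 genes examined for a core that lies apart from the other 3, 1 was found. PDF1, an epidermal marker used to check the tissue, had 683 CPM in core 2 and 1070.1 to 1141 CPM in the other cores, and the gap was 0.8448 of its range; that is above Dixon's 95% critical value for 4 samples. Chance alone flags about 1 in 20 groups of samples. None of the 5 SPL genes with 1 transcript model passed that limit.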

How the results depend on the processing

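Of 168 alternative values, 151 kept their direction and their side of the threshold or moved by less than 1 SD, or by less than 1.5 times for counts of genes. The counting-noise call was lost for SPL3 without core 2 (adjusted p = 0.405, range over the cores left out 5.83e-07 to 0.405), for SPL6 without core 2 (0.104) or core 3 (0.143; range 0.0195 to 0.143) and for SPL15 without core 1 (0.141; range 0.00748 to 0.141). The number of SPL genes past the threshold ran from 2 to 4 over the cores left out. Over all genes, 6507 to 7580 passed with 1 core left out, against 8191 with all cores. Without genes covered on the opposite strand, 2 of 2 SPL genes passed. That alternative was chosen after seeing the data, as was the test with several models summed. With coding length the log2 ratio of SPL15 over SPL5 was -1.22, and list medians were 40.6 for SPL genes without a site, 9.30 for miR172 targets, 14.3 for flowering genes, 10.2 for trichome genes, 16.9 for the miRNA machinery and 15.1 CPM per kb for regulators of MIR156. Leaving out 1 core put the MIR156 and MIR157 median at 0.373 to 0.557 CPM per kb, main value 0.417. No paired analysis was possible because all cores belong to 1 group. At this depth the 12 MIR156 and MIR157 loci lay below 1 CPM in every core.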
